A study of Carica papaya with 12 samples.

Results

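The genes described here are 44 gene models of papaya (Carica papaya) whose RNA was lower in larger than in smaller flower buds in every sex. They were chosen by their values. Counts were scaled to the total of each library as CPM, the counts of a gene in each 1000000 counts, and 0.5 CPM was added. Shares of counts and ratios between bud sizes below are on these plain totals. The levels in CPM are instead on totals adjusted by TMM, a scaling that evens out the bulk of the genes between libraries (factors of 0.909 to 1.089), so that a ratio formed from printed levels differs somewhat from the printed ratio. Each library of 7–12 mm buds was then paired with the library of 1–6 mm buds of the same sex and replicate number. A gene was kept when its value in the smaller buds was at least 1.5 times that in the larger buds in all 6 pairs and its mean over the 12 libraries was at least 5. The files list 27689 gene models, of which 15710 had such a mean and 44 met both thresholds. A further gene that met them, supercontig_97.109 (1 of the models named COMITIN), belongs to the gene tables of the study and was left out. All 44 genes passed the filter on low counts and were tested among 19339 genes.

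RNA was sequenced from whole flower buds of male 'AU9', hermaphrodite 'SunUp' and female 'AU9' plants, untreated, at 7–12 mm (labelled post-meiosis) and at 1–6 mm (labelled pre-meiosis). Each of the 6 groups had 2 libraries, which the study calls biological replicates. Replicate 1 was sequenced as single reads on a HiSeq2000 and replicate 2 as read pairs on a HiSeq2500. All hermaphrodites were 'SunUp' and all males and females 'AU9', so that for hermaphrodites sex and cultivar cannot be told apart, and a size class covers buds of several developmental stages.

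As a flower bud grows, the organ primordia formed by dividing cells enlarge and differentiate, and RNAs of early organ formation usually make up a smaller part of the total in older buds. Papaya has male, hermaphrodite and female plants. Male flowers carry stamens and a rudimentary pistil, hermaphrodite flowers carry stamens and a pistil, and female flowers carry a pistil without stamens. Buds were measured whole, so that fewer cells of a type and less RNA per cell cannot be told apart. The gene models are known by identifier only (evm.model.supercontig_48.86, for example, shortened below to supercontig_48.86), and no name or function was assigned to any of the 44.

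The libraries held between 4520811 and 16564137 counts. Replicate 2 of male and of hermaphrodite buds of 1–6 mm had the most unaligned reads in the study and was kept. The labelled tissue was checked with 5 floral organ identity genes (PI, both AP3 isoforms, SEP3 and AP2, which specify petals, stamens and other organs), each of which had between 64.1 and 633 CPM in every library. Their summed level was 1336 and 1565 CPM in male and 656 and 671 CPM in female buds of 7–12 mm, and 757 and 747 CPM in male and 534 and 555 CPM in female buds of 1–6 mm. A list of 6 anther and tapetum genes (SPL/NZZ, DYT, TDF1, both AMS isoforms and CpMS1) summed to between 787 and 1875 CPM in every male and hermaphrodite library and to between 0.217 and 2.70 CPM in the female libraries. In females CpMS1 had no count in 3 of 4 libraries. It was also near 0 in hermaphrodite buds of 1–6 mm (0.130 and 0 CPM), where TDF1 and AMS isoform 1 were the highest of the list. A high sum therefore does not mean that each gene of the list was present. The part of organ composition in the differences between sexes below was not tested.

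The 44 genes together took 0.0785 and 0.092% of the counts in male buds of 7–12 mm, against 0.182 and 0.191% in male buds of 1–6 mm. In hermaphrodites they took 0.259 and 0.249% at 7–12 mm, against 0.535 and 0.484% at 1–6 mm. In females the shares were 0.257 and 0.341% at 7–12 mm, against 0.716 and 0.698% at 1–6 mm. The fall of this share follows from how the genes were chosen. Male buds had the lowest share at either size. The mean share in buds of 7–12 mm was 0.0852% ± 0.00956 in males, 0.254% ± 0.00721 in hermaphrodites and 0.299% ± 0.0591 in females (SD, n = 2 each), and hermaphrodites and females overlapped. In buds of 1–6 mm it was 0.187% ± 0.00642 in males, 0.510% ± 0.0361 in hermaphrodites and 0.707% ± 0.0121 in females (SD, n = 2 each), without overlap. An exact permutation test of 2 libraries against 2 cannot give a two-sided p below 0.333, so the shares were not tested. The 4 genes with most counts (supercontig_11.119, supercontig_3.304, supercontig_26.220 and supercontig_10.75) made up 49.6% of the summed CPM. Without them the share was 0.0445 and 0.0515% in male, 0.131 and 0.122% in hermaphrodite and 0.113 and 0.151% in female buds of 7–12 mm. It was 0.116 and 0.113% in male, 0.298 and 0.259% in hermaphrodite and 0.339 and 0.329% in female buds of 1–6 mm, with males again lowest at either size.

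**Figure D1:**
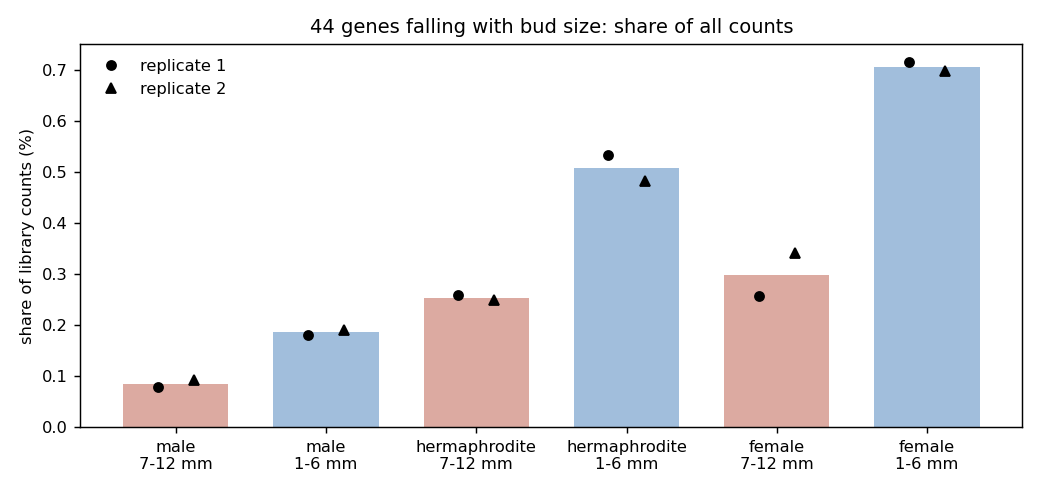
Share of all counts of a library (%) that fell on the 44 genes, by sex and bud size. Bars are the mean of 2 libraries and points the libraries (circle, replicate 1; triangle, replicate 2). Male buds of 7–12 mm had 0.0785 and 0.092%, the lowest shares of the 12 libraries, and female buds of 1–6 mm had 0.716 and 0.698%, the highest.

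The depth of the fall differed among the 44 genes. The lowest of the 6 ratios of a gene (1–6 over 7–12 mm, on CPM + 0.5) ran from 1.502 to 2.92 with a median of 1.71. It lay in a male pair for 2 (replicate 1) and 7 genes (replicate 2), in a hermaphrodite pair for 8 and 10 genes and in a female pair for 7 and 10 genes. The list grew from 44 to 77 genes without the pair of female replicate 2 and to between 48 and 59 genes without any other pair. By pair, the median ratio was 2.33 and 2.13 in males, 2.11 and 2.15 in hermaphrodites, and 2.997 and 2.243 in females. Just inside the ratio limit were supercontig_26.220 (lowest ratio 1.502), supercontig_36.151 (1.503) and supercontig_26.218 (1.53), and just outside it were supercontig_19.266 (1.49), supercontig_17.10 (1.48) and supercontig_79.54 (1.48). Another 21 genes had the ratio but not the mean level. In the fit across all genes (edgeR's quasi-likelihood test, with an adjusted p under 0.05 and more than a 2-fold change), 21 of the 44 were lower at 7–12 mm in males, 19 in hermaphrodites and 31 in females. Of all tested genes, 2.77% in males, 0.972% in hermaphrodites and 1.2% in females were called lower. The choice of the genes used these differences, so nothing is read from the counts.

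The gene with the largest lowest ratio was supercontig_1.309, a model of 2 exons on scaffold scf7180000007636 (103778 to 124154, plus strand). It had 7.40 and 9.77 CPM in male buds of 7–12 mm, against 98.3 and 64.0 CPM in male buds of 1–6 mm. In hermaphrodites it had 58.4 and 50.7 CPM at 7–12 mm, against 256 and 204 CPM at 1–6 mm. In females it had 46.0 and 21.6 CPM at 7–12 mm, against 150 and 183 CPM at 1–6 mm. The ratio on plain totals was 13.5 and 6.77 in the male pairs and 2.92 and 8.02 in the female pairs, which shows how far pairs of 1 sex could differ. Next came supercontig_482.1, supercontig_144.10 and supercontig_74.87, whose lowest ratios were 2.53, 2.49 and 2.28. For supercontig_482.1, a single-exon model, larger buds had 0.467 and 0.889 CPM in males, 5.76 and 5.66 CPM in hermaphrodites and 11.2 and 17.4 CPM in females. The smaller buds had 3.16 and 4.09 CPM in males, 21.1 and 17.1 CPM in hermaphrodites and 41.1 and 46.2 CPM in females. The ratio of this gene on CPM + 0.5 stayed within 2.53 and 4.05 in the 6 pairs, although its level differed by more than 10-fold between males and females of either size. The added 0.5 CPM is large beside the male values of 0.467 and 0.889 CPM and lowers the male ratios. The log2 change in the fit across all genes was -2.47 in males, -1.75 in hermaphrodites and -1.62 in females. The lowest ratios of the remaining deep fallers were 2.2 for supercontig_48.86, 2.08 for supercontig_106.107, 2.03 for supercontig_84.113 and 2.01 for supercontig_10.75. The 8 genes named here are those with a ratio of at least 2 in every pair.

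The deep fallers differed to varying degrees between sexes. The level of supercontig_144.10 (5 exons) was 1.64 and 1.78 CPM in male, 3.25 and 2.77 CPM in hermaphrodite and 3.56 and 5.48 CPM in female buds of 7–12 mm. At 1–6 mm it was 10.8 and 9.86 CPM in male, 13.2 and 7.63 CPM in hermaphrodite and 23.2 and 17.6 CPM in female buds, so that males and hermaphrodites overlapped in the smaller buds. The log2 fold change of males over hermaphrodites at 1–6 mm was -0.02 (adjusted p = 0.99, edgeR), and its sign changed when libraries were scaled by their plain totals. It was called lower in males than in females at 7–12 mm (log2 fold change -1.39, adjusted p = 0.00754). For supercontig_84.113, larger buds had 31.3 and 23.8 CPM in males, 81.6 and 54.8 CPM in hermaphrodites and 42.6 and 30.8 CPM in females. The smaller buds had 98.4 and 64.0 CPM in males, 215 and 126 CPM in hermaphrodites and 96.4 and 86.6 CPM in females, and males overlapped females at either size. Males were called lower than hermaphrodites at 7–12 mm (log2 fold change -1.30, adjusted p = 0.026, edgeR). By contrast supercontig_74.87, a single-exon model of 1548 bases, had 1.25 and 1.18 CPM in male, 4.07 and 3.02 CPM in hermaphrodite and 5.82 and 3.97 CPM in female buds of 7–12 mm. In buds of 1–6 mm it had 3.94 and 3.10 CPM in males, 18.6 and 13.5 CPM in hermaphrodites and 28.8 and 29.7 CPM in females, with males lowest at either size without overlap. For supercontig_106.107 the levels were 1.32 and 1.48 CPM in male, 1.81 and 1.89 CPM in hermaphrodite and 4.86 and 5.48 CPM in female buds of 7–12 mm, where females stood apart. The mean level of 5 was met only through females for supercontig_106.107 and not in males for supercontig_74.87. Their orders of sexes are therefore not independent of the choice.

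**Figure D2:**
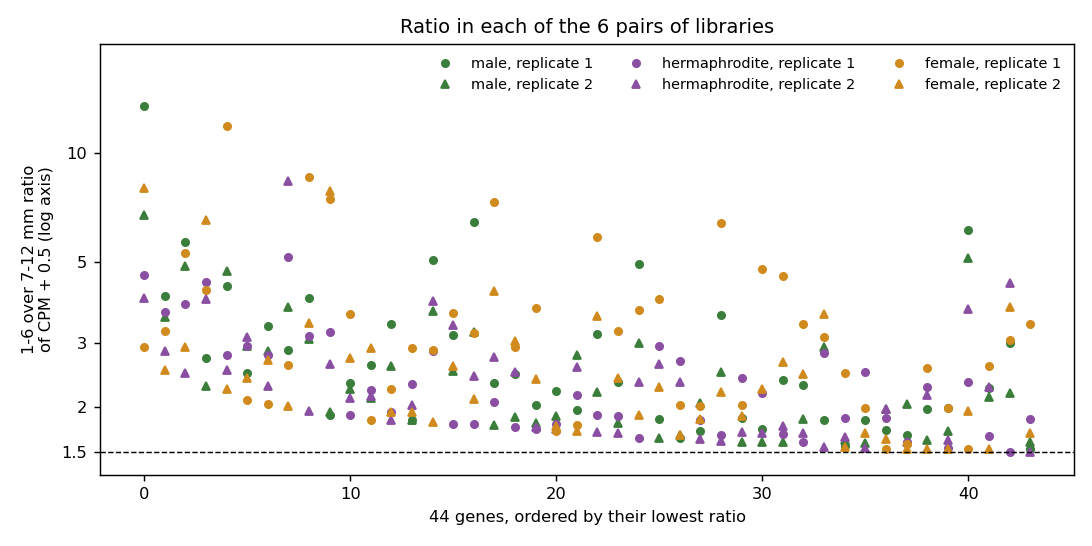
Ratio of 1–6 over 7–12 mm buds (CPM + 0.5, log axis) in the 6 pairs of libraries for each of the 44 genes, ordered by their lowest ratio. Colours are sexes, circles replicate 1 and triangles replicate 2, and the dashed line is the limit of 1.5. The lowest ratio of a gene ran from 1.502 to 2.92 and single pairs reached 13.5.

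Per kilobase of model length, the 44 genes had a median mean level of 31.3 CPM per kb, against 23.7 CPM per kb over all tested genes, and ranged from 5.79 to 850 CPM per kb. The most abundant per kb was supercontig_3.304, a single-exon model of 581 bases (scaffold scf7180000008802, 869963 to 870543, minus strand), at 850 CPM per kb. It had 128 and 191 CPM in male, 560 and 619 CPM in hermaphrodite and 189.3 and 289 CPM in female buds of 7–12 mm. Smaller buds had 275 and 329 CPM in male, 843 and 1051 CPM in hermaphrodite and 708 and 739 CPM in female buds. Hermaphrodite libraries were thus the highest at either size and male libraries the lowest at 1–6 mm, while males and females overlapped at 7–12 mm. Second was supercontig_11.119 (8 exons, 457 CPM per kb), with 117 and 117 CPM in male, 547 and 491 CPM in hermaphrodite and 615 and 680 CPM in female buds of 7–12 mm. In buds of 1–6 mm it had 188 and 222 CPM in males, 947 and 802 CPM in hermaphrodites and 1373 and 1303 CPM in females. Its 12 values fell in the same order of sexes at either size, males lowest and females highest. Then followed supercontig_10.75 (311 CPM per kb), supercontig_37.133 (293), supercontig_26.220 (197), supercontig_62.96 (173), supercontig_72.47 (163) and supercontig_1.309 (135 CPM per kb). Of these, supercontig_37.133 differed least between males and females, with 61.4 and 75.1 CPM in male and 75.61 and 75.0 CPM in female buds of 7–12 mm and overlapping values at that size.

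The choice of the 44 genes used no ratio between sexes, but it used the same libraries, and its mean level over all sexes admitted 9 genes that did not reach a mean of 5 within every sex. Among these were supercontig_175.21, supercontig_482.1 and supercontig_74.87 (low in males) and supercontig_233.22 (low in hermaphrodites). In supercontig_106.107 and supercontig_36.151 both males and hermaphrodites were low, and in supercontig_27.135 and contig_42490.1 both males and females. In males compared with females, 30 of the 44 genes were down-regulated and 0 up-regulated at 1–6 mm, where 12.8% of all tested genes were called (6.95% lower, 5.86% higher, edgeR's quasi-likelihood test). At 7–12 mm, 27 were down-regulated and 0 up-regulated, where 16.5% of all tested genes were called (7.69% lower, 8.79% higher). The median log2 fold change of the 44 genes was -1.75 at 1–6 mm and -1.60 at 7–12 mm, against 0.05 and 0.02 over all tested genes. At both sizes 23 of the 44 genes were called lower in males, a pattern met by 3.88% of all tested genes. Both male libraries lay below both female libraries for 39 genes at 1–6 mm (29.4% of all tested genes) and for 31 genes at 7–12 mm (28.7%). By sign alone 42 genes were lower in males at 1–6 mm, but 39 when libraries were scaled by their plain totals, which moved the median of all genes by 0.22 on the log2 scale. The side changed for supercontig_37.133, supercontig_31.39 and supercontig_84.113. Of the 35 genes with a mean of at least 5 within every sex, 24 were called lower in males at 1–6 mm (7.13% of the tested genes with such levels) and 22 at 7–12 mm (7.65%).

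The widest difference between males and females was that of supercontig_48.86 (12 exons, scaffold scf7180000007895, 374155 to 378088, plus strand). It had 1.48 and 1.33 CPM in male and 28.5 and 137 CPM in female buds of 7–12 mm, and 7.43 and 7.61 CPM in male and 380 and 317 CPM in female buds of 1–6 mm. The groups did not overlap, but the female libraries of 7–12 mm lay far apart. The log2 fold change was -5.83 at 7–12 mm (SE 0.84, adjusted p = 0.00166, edgeR) and -5.54 at 1–6 mm (SE 0.72, adjusted p = 0.0013). Hermaphrodites stood nearer to males than to females for this gene, with 4.07 and 3.52 CPM at 7–12 mm and 11.5 and 9.65 CPM at 1–6 mm. Both male libraries still lay below both hermaphrodite libraries at either size. The differences between males and hermaphrodites did not pass the threshold (log2 fold change -1.42, adjusted p = 0.392 at 7–12 mm, and -0.52, adjusted p = 0.749 at 1–6 mm, edgeR).

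A graded order was seen in supercontig_175.21, a single-exon model of 747 bases (scaffold scf7180000007976, 99804 to 100550, plus strand). Buds of 7–12 mm had 0.623 and 1.04 CPM in males, 6.88 and 5.03 CPM in hermaphrodites and 42.1 and 38.9 CPM in females. Buds of 1–6 mm had 3.05 and 3.24 CPM in males, 13.0 and 9.65 CPM in hermaphrodites and 105 and 78.4 CPM in females. Males were below hermaphrodites and hermaphrodites below females at either size, with no overlap. The log2 fold change of males over females was -5.68 at 7–12 mm (SE 0.30, adjusted p = 1.77e-06, edgeR) and -4.87 at 1–6 mm (SE 0.26, adjusted p = 2.46e-06). The same order with both steps called was met by 6 of the 44 genes at 7–12 mm (0.372% of all tested genes) and by 6 at 1–6 mm (0.259%). For 5 genes it held at both sizes: supercontig_175.21, supercontig_10.75, supercontig_482.1, supercontig_62.96 and supercontig_26.220. These were also the 5 genes called in all 6 comparisons of sexes. For supercontig_175.21 and supercontig_482.1 no male library reached 5 CPM, so that the mean level of 5 was met only through the other sexes. Their low male level is therefore not independent of the choice.

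For supercontig_10.75 (5 exons) the values were 15.4 and 17.0 CPM in male, 44.1 and 22.4 CPM in hermaphrodite and 362 and 461 CPM in female buds of 7–12 mm. In buds of 1–6 mm they were 42.0 and 60.9 CPM in males, 216.25 and 191 CPM in hermaphrodites and 1048 and 958 CPM in females. For supercontig_62.96 (4 exons) they were 3.58 and 7.55 CPM in male, 43.2 and 36.0 CPM in hermaphrodite and 66.5 and 128 CPM in female buds of 7–12 mm. No group overlapped another of the same size in either gene. Between hermaphrodites and females, supercontig_10.75 differed by a log2 fold change of -3.62 at 7–12 mm (SE 0.31, adjusted p = 4.97e-05, edgeR) and of -2.30 at 1–6 mm (SE 0.29, adjusted p = 0.000482).

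**Figure D3:**
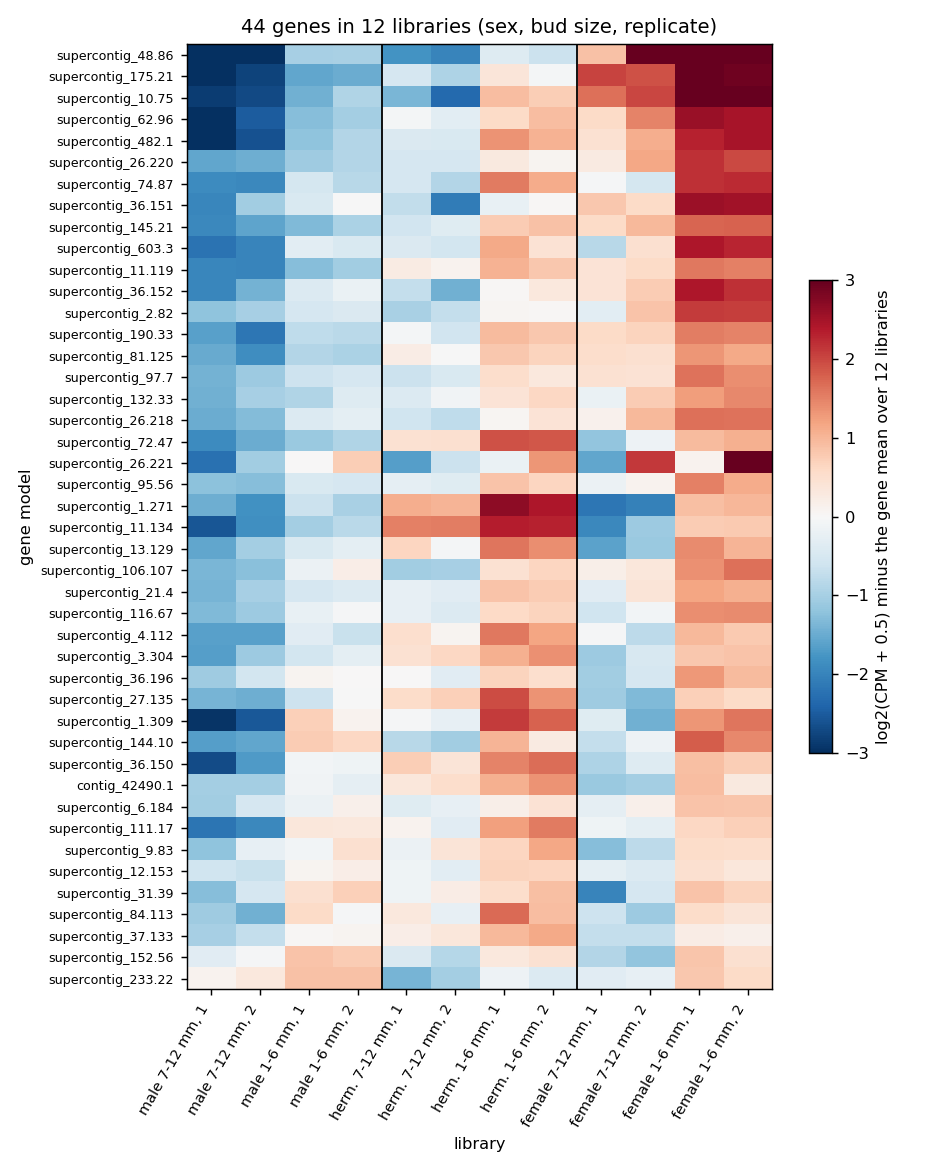
Level of the 44 genes in the 12 libraries, as log2(CPM + 0.5) minus the mean of the gene, ordered from top to bottom by the log2 fold change of males over females at 1–6 mm. Red is above and blue below the gene mean, and colours stop at 3 and -3. The top genes are lowest in males and highest in females, and supercontig_1.271 and supercontig_11.134 are highest in hermaphrodites.

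Males also differed from hermaphrodites. In male compared with hermaphrodite buds of 1–6 mm, 25 of the 44 genes were down-regulated and 1 up-regulated, where 4.59% of all tested genes were called (2.25% lower, 2.34% higher). Larger buds had 24 down-regulated and 1 up-regulated, where 8.58% of all tested genes were called (4.3% lower, 4.28% higher). The median log2 fold change was -1.22 at either size, against 0.02 over all tested genes, and 21 genes were called lower in males at both sizes (1.59% of all tested genes). The 26 calls at 1–6 mm became 17 without male replicate 1 and 15 without replicate 2 of male and hermaphrodite buds of that size. Genes called lower in males at both sizes numbered 12 without that pair of libraries. At both sizes 12 of the 44 genes were called lower in males than in either other sex, a pattern met by 0.729% of all tested genes. Of the 35 genes with a mean of at least 5 within every sex, 20 were called lower in males than in hermaphrodites at 1–6 mm (2.14% of the tested genes with such levels) and 19 at 7–12 mm (3.72%).

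The exception in direction was supercontig_233.22 (scaffold scf7180000007644, 1151518 to 1152568, plus strand). It had 6.93 and 8.15 CPM in male, 2.13 and 2.89 CPM in hermaphrodite and 4.99 and 5.34 CPM in female buds of 7–12 mm. At 1–6 mm it had 12.20 and 12.26 CPM in male, 5.70 and 4.71 CPM in hermaphrodite and 11.5 and 9.71 CPM in female buds. Hermaphrodites were lowest, and males exceeded them by a log2 fold change of 1.59 at 7–12 mm (SE 0.22, adjusted p = 0.00111, edgeR) and of 1.22 at 1–6 mm (SE 0.22, adjusted p = 0.00643). The hermaphrodite mean of this gene did not reach 5, so that it met the level limit through the other sexes. Among the 35 genes with a mean of at least 5 within every sex, 0 were called higher in males than in hermaphrodites at either size. Between males and females supercontig_233.22 did not pass the threshold at 7–12 mm (log2 fold change 0.54, adjusted p = 0.0828) or 1–6 mm (0.20, adjusted p = 0.55, edgeR). The call at 1–6 mm was lost without hermaphrodite replicate 2 (log2 fold change 1.10, adjusted p = 0.0524) and without replicate 2 of male and hermaphrodite buds (1.09, adjusted p = 0.173).

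Between hermaphrodites and females the 44 genes went either way. In hermaphrodites 14 were down-regulated and 3 up-regulated at 1–6 mm, where 11.7% of all tested genes were called (6.52% lower, 5.15% higher). Larger buds had 14 down-regulated and 9 up-regulated, where 15.3% of all tested genes were called (7.53% lower, 7.74% higher). The median log2 fold change was -0.59 at 1–6 mm and -0.34 at 7–12 mm, with single genes between -5.01 and 1.63 at 1–6 mm and between -4.41 and 3.3 at 7–12 mm. Called higher in hermaphrodites than in both other sexes were 3 genes at 1–6 mm (0.589% of all tested genes), namely supercontig_1.271, supercontig_11.134 and supercontig_27.135. At 7–12 mm there were 8 such genes (1.56% of all tested genes), the 3 just named with supercontig_36.150, supercontig_72.47, supercontig_3.304, supercontig_13.129 and contig_42490.1. For supercontig_27.135 and contig_42490.1 the mean level of 5 was met only through hermaphrodites. Their high level there is therefore not independent of the choice. Of the 35 genes with a mean of at least 5 within every sex, 2 were called higher in hermaphrodites than in females at 1–6 mm. At 7–12 mm 7 were.

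Among the genes called highest in hermaphrodites, supercontig_11.134 had 3 exons (scaffold scf7180000008648, 4408 to 6396, plus strand). It had 4.28 and 7.41 CPM in male, 80.6 and 82.5 CPM in hermaphrodite and 6.98 and 12.9 CPM in female buds of 7–12 mm. Smaller buds had 13.6 and 15.6 CPM in male, 145 and 141 CPM in hermaphrodite and 47.9 and 48.7 CPM in female buds. Hermaphrodites were highest without overlap at either size, and even their larger buds exceeded the smaller buds of the other sexes. The log2 fold change of hermaphrodites over females was 3.08 at 7–12 mm (SE 0.27, adjusted p = 4.6e-05, edgeR) and 1.57 at 1–6 mm (SE 0.24, adjusted p = 0.00134). That of males over hermaphrodites was -3.86 at 7–12 mm (SE 0.29, adjusted p = 5.53e-05) and -3.3 at 1–6 mm (SE 0.27, adjusted p = 0.000182, edgeR). The same order was shown by supercontig_72.47, with 18.9 and 24.9 CPM in male, 97.2 and 99.2 CPM in hermaphrodite and 31.0 and 63.9 CPM in female buds of 7–12 mm.

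Over all 6 comparisons of sexes, 5 of the 44 genes were called in none, where 71.4% of all tested genes were called in none. These were supercontig_152.56, supercontig_12.153, supercontig_31.39, supercontig_26.221 and supercontig_6.184. Of the others, 6 genes were called in 1 comparison, 6 in 3, 16 in 4, 6 in 5 and 5 in all 6. For supercontig_12.153, larger buds had 12.9 and 12.3 CPM in males, 18.0 and 15.7 CPM in hermaphrodites and 16.1 and 14.8 CPM in females. The smaller buds had 21.1 and 22.96 CPM in males, 31.96 and 31.4 CPM in hermaphrodites and 27.7 and 25.2 CPM in females. This gene therefore fell in all sexes from levels within a narrow range, although male libraries were the lowest at either size. Without overlap and at both sizes, male libraries lay below those of both other sexes for 28 of the 44 genes (6.68% of all tested genes).

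The difference between sexes was much alike at both sizes. Across the 44 genes, the log2 fold changes at 1–6 and 7–12 mm had a Pearson r of 0.878 (Spearman rho 0.816) for males over females, 0.855 (0.834) for males over hermaphrodites and 0.925 (0.936) for hermaphrodites over females. The sign was the same at both sizes for 39 genes in males over females, 44 in males over hermaphrodites and 40 in hermaphrodites over females. These values come from different libraries at each size, but they share the scaling, the genes are not independent replicates, and a required fall in each sex ties the differences at both sizes together. For scale, the mirror rule (7–12 over 1–6 mm ratio of at least 1.5 in all 6 pairs, same mean level) gave 51 rising genes. In males over females 35 of these were called higher and 0 lower at 1–6 mm, and 42 higher and 1 lower at 7–12 mm, with median log2 fold changes of 1.29 and 1.92. The falling genes were thus mostly lower in males and the rising genes mostly higher in males, at either size.

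**Figure D4:**
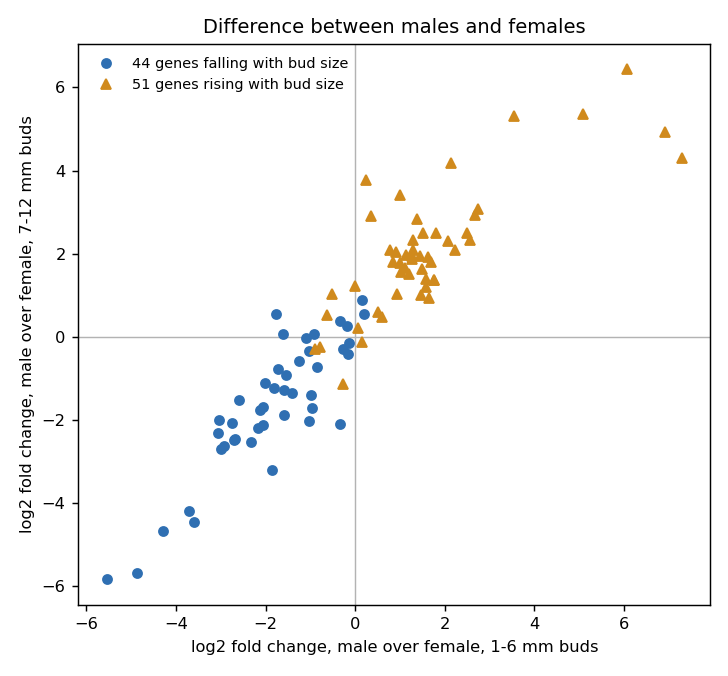
Log2 fold change of males over females in 7–12 mm buds (vertical) against that in 1–6 mm buds (horizontal) for the 44 falling genes (circles) and 51 rising genes (triangles). Falling genes had a median of -1.60 at 7–12 mm and -1.75 at 1–6 mm, rising genes of 1.92 and 1.29.

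Whether a gene fell further in one sex than in another was tested with an interaction term. The choice required a fall in each sex but did not fix in which it was deeper. The size change differed between males and females for 3 of the 44 genes, where 5.38% of all tested genes were called, and between hermaphrodites and females for 1, where 2.39% were called. Between males and hermaphrodites 0 of 44 were called, where 0.512% of all tested genes were called. The called share of the 44 genes in the main fit was thus 6.82% for males and females and 2.27% for hermaphrodites and females, near that of all tested genes. Between males and hermaphrodites, 7 of the 44 had an unadjusted p under 0.05 with edgeR and 0 were called with DESeq2. The counts rested on few libraries. Without female replicate 2 of 7–12 mm, which leaves 1 library in that group, both comparisons with females had more calls. The called share then rose further among the 44 than among all tested genes. The nearness to all tested genes is therefore that of the main fit only. The hermaphrodite and female count was 0 without female replicate 1 of 1–6 mm or of 7–12 mm, and 2 without either male library of 7–12 mm or hermaphrodite replicate 1 of 7–12 mm. It was 2 with the replicate number as a block and 5 with DESeq2.

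The strongest of these was supercontig_1.271 (10 exons, scaffold scf7180000008903, 156309 to 159074, plus strand). It had 6.70 and 5.18 CPM in males, 41.6 and 40.0 CPM in hermaphrodites and 3.97 and 4.38 CPM in females at 7–12 mm. At 1–6 mm it had 12.3 and 9.72 CPM in males, 126.9 and 106 CPM in hermaphrodites and 36.5 and 39.2 CPM in females. Males were thus above females in larger buds (log2 fold change 0.54, not called) and below them in smaller buds, without overlap at either size. The log2 change from the smaller to the larger buds was -0.88 in males and -3.19 in females. The difference between these was 2.31 (SE 0.24, adjusted p = 0.00132, edgeR), and that between hermaphrodites and females was 1.67 (SE 0.22, adjusted p = 0.00962). The second call was lost without female replicate 1 of 1–6 mm (adjusted p = 0.0556) or of 7–12 mm (adjusted p = 0.0506).

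In the opposite direction, supercontig_111.17 (3 exons, scaffold scf7180000007663, 198912 to 200238, minus strand) fell further in males than in females. It had 1.79 and 2.22 CPM in male and 9.03 and 7.94 CPM in female buds of 7–12 mm, and 12.6 and 12.5 CPM in male and 15.6 and 16.5 CPM in female buds of 1–6 mm. The log2 change was -2.66 in males and -0.91 in females, a difference of -1.74 (SE 0.29, adjusted p = 0.0071, edgeR). For supercontig_13.129, a single-exon model, male buds had 12.15 and 18.1 CPM and female buds 11.8 and 17.0 CPM at 7–12 mm, which overlap. In the smaller buds, males had 26.785 and 30.3 CPM and female buds 99.7 and 75.1 CPM. The difference between the log2 changes was 1.69 (SE 0.41, adjusted p = 0.0401, edgeR) and was lost in 9 alternatives, among them leaving out male replicate 1 of 1–6 mm (adjusted p = 0.146).

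The models themselves were ordinary in size. The 44 genes had a median of 892.5 bases, summed over the exons of a model, and of 3 exons. Over all tested genes the medians were 936 bases and 4 exons. The 44 ran from 260 to 4310 bases and from 1 to 25 exons. Single-exon models numbered 12 (27.3%), against 19.7% of all tested genes. All 44 were placed on 1 scaffold each of the PacBio assembly, as were 97.7% of all tested genes. Only supercontig_84.113 overlapped another model (4.06% of all tested genes did), so its counts may include reads of the neighbour.

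The 44 genes lay on 37 scaffolds. Of these, 3 held more than 1 of the genes and 10 genes in all, and 5 genes had consecutive model numbers. Scaffold scf7180000007884 held 5, among them supercontig_36.150 (171496 to 173009), supercontig_36.151 (181214 to 181473) and supercontig_36.152 (181517 to 182732), all on the minus strand. The 2 last named are 43 bases apart, and 8204 bases lie between supercontig_36.150 and supercontig_36.151. The level of supercontig_36.152 was 2.41 and 3.70 CPM in male, 6.32 and 3.65 CPM in hermaphrodite and 14.6 and 18.6 CPM in female buds of 7–12 mm. In buds of 1–6 mm it was 8.04 and 9.30 CPM in males, 11.1 and 13.5 CPM in hermaphrodites and 60.1 and 50.6 CPM in females. Females were highest at either size without overlap. The same held for supercontig_36.151, with 0.467 and 1.33 CPM in male, 1.75 and 0.377 CPM in hermaphrodite and 6.09 and 5.07 CPM in female buds of 7–12 mm. Its levels at 1–6 mm were 2.22 and 3.24 CPM in males, 2.72 and 3.37 CPM in hermaphrodites and 21.8 and 21.1 CPM in females. The mean level of 5 was met only through females for supercontig_36.151, so its high female level is not independent of the choice. For supercontig_36.150 the hermaphrodites were highest, with 1.40 and 3.26 CPM in male, 19.7 and 15.3 CPM in hermaphrodite and 5.95 and 8.76 CPM in female buds of 7–12 mm. All 3 were chosen for their fall, and the flanking models outside the list had lowest ratios of 0.602 (supercontig_36.148), 0.828 (supercontig_36.153) and 0.0456 (supercontig_36.154), that is, they did not fall in every pair. The highest sex thus differed between neighbours of the list, also with supercontig_36.151 set aside.

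On scaffold scf7180000008439 lay supercontig_26.220 (1728985 to 1731858, minus strand), supercontig_26.221 (1728080 to 1728457, plus strand) and supercontig_26.218 (1743651 to 1744994, plus strand). In buds of 7–12 mm, supercontig_26.220 had 75.5 and 81.3 CPM in males, 158 and 158 CPM in hermaphrodites and 272 and 504 CPM in females. Smaller buds had 107.4 and 121 CPM in males, 277 and 238 CPM in hermaphrodites and 1020 and 883 CPM in females. Its order of sexes was that of supercontig_26.218, with 3.58 and 4.147 CPM in male, 7.07 and 6.16 CPM in hermaphrodite and 11.9 and 21.8 CPM in female buds of 7–12 mm. The level of supercontig_26.221, which begins 527 bases beyond the end of supercontig_26.220 on the opposite strand, was lower in replicate 1 than in replicate 2 in each of the 6 groups. Replicate 2 consists of read pairs counted as single reads under the strand setting used for replicate 1, and the part of this counting in the level of supercontig_26.221 was not tested.

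**Figure D5:**
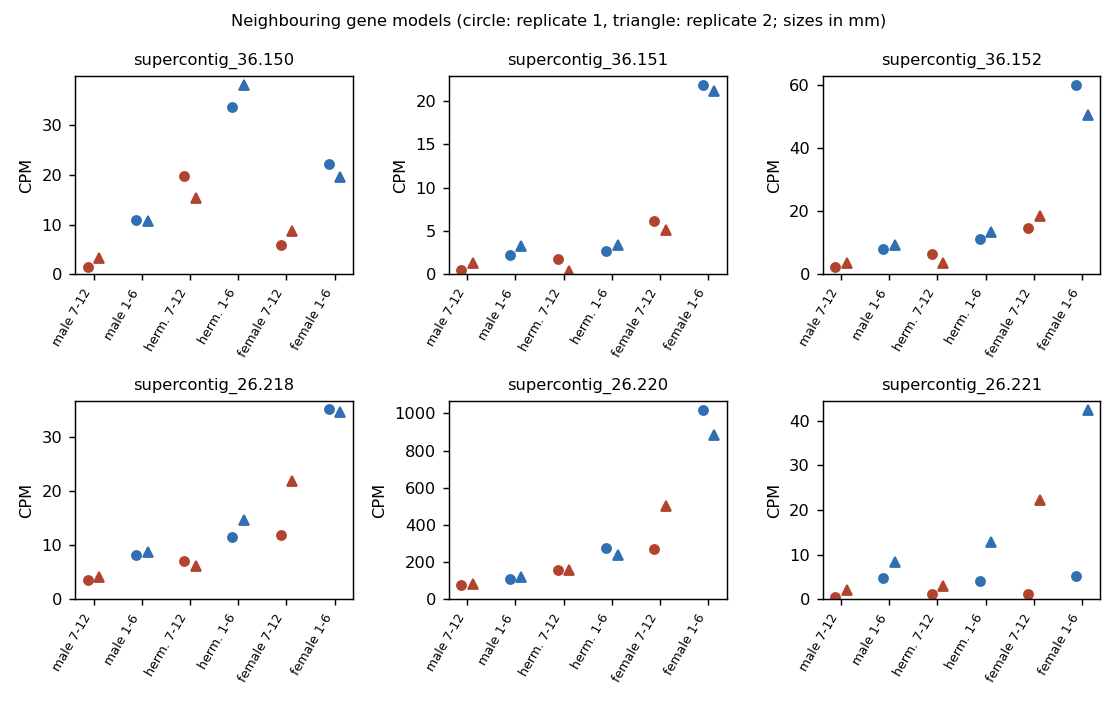
CPM of 6 neighbouring genes of the list in the 12 libraries, by sex and bud size (red, 7–12 mm; blue, 1–6 mm; circle, replicate 1; triangle, replicate 2). Upper row, 3 consecutive models, of which supercontig_36.151 and supercontig_36.152 are highest in females and supercontig_36.150 in hermaphrodites. The level limit was met only through females for supercontig_36.151. Lower row, supercontig_26.218, supercontig_26.220 and supercontig_26.221, the last of which reached 42.4 CPM in replicate 2 and 5.14 CPM in replicate 1 of female 1–6 mm buds.

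Genes with known names from the tables of the study were set beside the 44. The study chose part of these genes by differences among these samples, so that their direction is not independent evidence. Others came from normal and teratological male pistillodes of another cultivar, or are orthologs of genes known to regulate MS1. Of the 83 genes in these tables, 10 were lower in the larger buds in all 6 pairs, and COMITIN (supercontig_97.109) alone met the ratio and level thresholds. It had 0.234 and 0.889 CPM in male, 3.38 and 3.77 CPM in hermaphrodite and 1.3 and 1.78 CPM in female buds of 7–12 mm. Smaller buds had 5.601 and 3.66 CPM in male, 22.6 and 24.2 CPM in hermaphrodite and 13.3 and 6.76 CPM in female buds. Hermaphrodites were highest at either size, as in supercontig_11.134. Of all tested genes, 2.77% in males, 0.972% in hermaphrodites and 1.2% in females were called lower at 7–12 mm, and 2.92% in males, 2.07% in hermaphrodites and 0.745% in females were called higher. Of 9 genes of cell division and chromosomes, 5 were called lower at 7–12 mm in males, 1 in hermaphrodites and 0 in females, where 1 was called higher. Of 10 genes of organ growth and auxin, 4 were called lower in males, 2 in hermaphrodites and 0 in females. Of 10 anther and tapetum genes, 3 were called lower and 1 higher in males, 2 lower and 2 higher in hermaphrodites and 0 in females. No gene of the brassinosteroid synthesis list was called, and 1 of 5 floral organ identity genes was called higher in males. The cell wall list of 5 genes had 1 called lower and 1 higher in males and 1 lower in females. The median log2 change of the cell division list was -1.52 in males, -0.76 in hermaphrodites and 0.72 in females. That of the organ growth list was -0.76 in males, -0.84 in hermaphrodites and 0.08 in females. Over the 44 genes it was -1.12 in males, -1.08 in hermaphrodites and -1.48 in females, and over all tested genes it lay between 0 and 0.01. The fall of the 44 genes in each sex was required by their choice, so these medians are no comparison of the lists.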

How the data were processed

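Flower bud libraries were made with a stranded mRNA kit. The authors used FastQC (0.11.5) and Trimmomatic (0.36) on the reads, HISAT2 (2.0.5) for alignment to the PacBio assembly, SAMtools (1.3.1), and featureCounts (1.5.2) for counting over exons of coding sequences placed by GMAP. The deposited counts are whole reads per gene, not normalized. Per the file headers, counting was stranded with 1 setting throughout, included multi-mapping reads at every location and treated read pairs as single reads. The other deposited value used is the summed exon length of each model in bases.

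The tests used edgeR 4.0.16 (with limma 3.58.1 and, as an alternative, DESeq2 1.42.0) in R 4.3.3. After filterByExpr (minimum count 10), 19339 genes were scaled by TMM (factors 0.909 to 1.089, also used for the printed levels in CPM, while ratios and shares use plain totals) and fitted with 1 coefficient per group over 12 libraries (common biological coefficient of variation 0.307, robust quasi-likelihood fit, Benjamini-Hochberg over all tested genes). A call needed an adjusted p under 0.05 together with a log2 fold change beyond 1 in either direction. Each standard error is the size of the change divided by the root of F. P-values rest on the spread between the 2 libraries of a group, estimated over the 6 groups. The libraries of a group also differ in sequencing platform and read layout, and the main fit held no term for the replicate number. A fit with that term was run as an alternative. Level intervals were not computed: CPM at these totals carries counting error in addition to the replicate spread.

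The 44 genes and all lists were chosen with earlier results of these data known. Genes were named by rule: the 8 with the deepest fall, the 8 most abundant per kb, the 2 largest called changes without overlap in each direction of each sex comparison and each interaction, the 3 just inside and outside the ratio limit, and runs of at least 3 neighbours, which gave 24 genes. The 5 genes called in no sex comparison, those called highest in hermaphrodites, supercontig_26.221, and the genes whose sign depends on scaling were named after their values were seen. Replicate numbers pair the libraries, since they mark the sequencing platform and same-numbered libraries deviated together (r from 0.734 to 0.839 over 15 pairs of groups). Identifiers matched 0 entries of the RefSeq gene table, so no names or sequences are given. Alternatives were scaling, low-count filter, fold limit, DESeq2, replicate block, added CPM, level and ratio limits, thinning, and leaving out libraries. A mean of at least 5 within every sex was added as an alternative after seeing the data.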

Additional observations from a re-analysis of the deposited data

Results flagged for a closer look

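The change between bud sizes differed between sexes by the interaction term for 3 of the 44 genes (edgeR's quasi-likelihood test). Between males and females these are 6.82% of the 44 genes, against 5.38% of all tested genes. Between hermaphrodites and females 2.27% were called, against 2.39%. The shares are near the background in the main fit, but not without female replicate 2 of 7–12 mm. For supercontig_1.271 the log2 change in males minus that in females was 2.31 (adjusted p = 0.00132) and that in hermaphrodites minus that in females was 1.67 (adjusted p = 0.00962). For supercontig_111.17 the difference between males and females was -1.74 (adjusted p = 0.0071), and for supercontig_13.129 it was 1.69 (adjusted p = 0.0401). The call of supercontig_13.129 was lost in 9 alternatives (adjusted p from 0.0522 to 0.146) and the hermaphrodite call of supercontig_1.271 in 2 (adjusted p = 0.0556 without female replicate 1 of 1–6 mm and 0.0506 without that of 7–12 mm).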

How the results depend on the processing

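The list itself depends on its limits. It held 8 genes at a ratio of at least 2, 210 at 1.2, between 48 and 77 when 1 pair was left out, and 82 without both pairs that hold the libraries with the most unaligned reads. With TMM-scaled totals 42 genes met the rule (36 of them among the 44), with RLE factors 43 (35), and after thinning to the smallest library 41 (34).

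Genes called in males over females numbered 28 to 31 at 1–6 mm and 25 to 30 at 7–12 mm when 1 library was left out, in hermaphrodites over females 13 to 17 and 18 to 24, and in males over hermaphrodites 17 to 27 and 20 to 27. Called lower in males at both sizes were 20 to 25 genes against females and 15 to 23 against hermaphrodites. Size change calls ranged from 2 to 11 (males and females) and from 0 to 9 (hermaphrodites and females) and were 0 throughout (males and hermaphrodites). Calls of 7–12 over 1–6 mm ranged from 10 to 22 in males, 6 to 21 in hermaphrodites and 9 to 34 in females, lowest without male replicate 1 of 7–12 mm, hermaphrodite replicate 1 of 1–6 mm and female replicate 1 of 1–6 mm. A library left alone in its group is assumed to vary like the other groups. Without a fold limit 28 genes were called in hermaphrodites over females at 1–6 mm. Without both libraries with the most unaligned reads, 15 were called in males over hermaphrodites at 1–6 mm, 12 lower in males than hermaphrodites at both sizes and 11 in males over the sizes. The size change of hermaphrodites and females gave 5 calls with DESeq2 (3.49% of all tested genes). Among the 35 genes with a mean of at least 5 within every sex (chosen after seeing the data), 11 were called in hermaphrodites over females at 1–6 mm. The cause of these shifts was not tested.

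When a term for the replicate number was fitted, 2 genes were called for the size change between hermaphrodites and females. No other count then moved by over 1.5 times (16 in hermaphrodites over females at 1–6 mm, and 31 in males over females at 1–6 mm and 27 at 7–12 mm). For the 22 called results of named genes, 374 values over the alternatives (plain totals not among them) gave 360 with the same direction and call, 14 without the call and 0 with the other sign. Under plain totals the sign of supercontig_37.133, supercontig_31.39 and supercontig_84.113 changed in males over females at 1–6 mm, that of supercontig_31.39 in hermaphrodites over females and that of supercontig_144.10 in males over hermaphrodites, all of them uncalled there. The depth of replicate 2 and 2 libraries per group limit the precision of low values.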

Other observations

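Replicates of one group differed in the 44 genes. In female buds of 7–12 mm, 31 of the 44 were higher in replicate 2 than in replicate 1, with a median difference of 0.37 on the log2 scale against -0.01 over all genes, and 6 were over 2-fold higher. In male buds of 7–12 mm 32 were higher in replicate 2 (median 0.27), and in female buds of 1–6 mm 13 were (median -0.12).

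As a percentage of supercontig_26.220, the level of supercontig_26.221 was between 0.478 and 4.49 (median 0.788) in the libraries of replicate 1 and between 1.83 and 6.86 (median 4.616) in those of replicate 2. As a percentage of supercontig_36.152, that of supercontig_36.151 had medians of 27.7 in replicate 1 and 31.0 in replicate 2.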
